A study of Homo sapiens with 151 samples.

Results

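Peak lists were examined for 9 proteins of the 127 that were tagged with FLAG and assayed by ChIP-seq in HepG2, a human liver cancer cell line. The 9 were picked by the name of the tagged protein, as proteins that are not expected to read DNA sequence on their own: CENPX, REV3L, PRMT5, ZCCHC11 (also called TUT4), SMAD7, TSC22D2, GLMP, SLC30A9 and PHTF1. The other 24 of the 151 samples are input libraries without pulldown. All lists share the cell line, the anti-FLAG M2 antibody and the formaldehyde crosslink, the labels name no treatment, and the tag was added to the protein's own gene by genome editing (CETCh-seq). Each protein has 1 list, so no value below has a replicate error, and every comparison is between the 9 lists and the lists of other proteins. Together the 9 lists held 81329 peaks of 1471857 in all, from 240 in CENPX to 29489 in SMAD7 with a median of 7508. The study classes GLMP as a transcription factor (TF) and the other 8 as other DNA-associated proteins (DAPs), and it set TSC22D2 and ZCCHC11 apart as non-preferred data sets. Outside the 9 there are 114 preferred lists, and all but 9 of these belong to TFs. They are the TF lists with which each of the 9 is compared.

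A ChIP-seq peak marks DNA that was crosslinked near the tagged protein, either because the protein touches it or because another protein holds it there. Regions where a large share of all assayed proteins have a peak are called HOT or highly bound, and most lie at active promoters and enhancers. Among the 9, CENPX is a histone-fold protein of the kinetochore that also works beside FANCM at stalled replication forks, REV3L is the catalytic subunit of the translesion polymerase zeta, PRMT5 methylates arginines of Sm proteins and histones, and ZCCHC11 adds uridines to RNA such as the let-7 precursor. SMAD7 is the inhibitory SMAD of TGF-beta signalling and TSC22D2 belongs to the TSC22 family of leucine zipper proteins. GLMP, SLC30A9 and PHTF1 are membrane proteins, of the lysosome, of zinc transport and of the endoplasmic reticulum.

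The strongest peak was at the same place in all 9 lists, in an intron of NPAS4 on chromosome 11, a gene for a transcription factor that neurons switch on with activity. Its signal, which the authors did not scale between lists, was 286 in CENPX, the lowest, 451 in SLC30A9, the middle value, and 548 in SMAD7, the highest. The same site was the strongest peak in 65 of the TF lists and was present in 104 of them, so leading a list there was not particular to the 9. The site beside XKR7, a gene of the XK-related family, came next, ranking 2 or 3 in every one of the 9 lists and among the 10 strongest in 85 TF lists. INSM2, which encodes a zinc finger protein of neuroendocrine cells, held the site that ranked 2 to 4 in 8 of the lists, PRMT5 being the one without a peak there. The first and second of these sites are printed with the best match to RE1, the element read by the repressor REST in neuronal genes, in capitals.

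NPAS4 site, chr11:66421772-66421832, minus strand, hg38: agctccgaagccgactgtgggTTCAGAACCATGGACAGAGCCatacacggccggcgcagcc

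XKR7 site, chr20:31968553-31968613, plus strand, hg38: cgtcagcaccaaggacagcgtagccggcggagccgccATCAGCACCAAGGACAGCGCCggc

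Of the 19 letters compared, 2 differed from RE1 at the NPAS4 site and 1 at the XKR7 site. RE1 was searched as its left arm TTCAGCACC and, after 2 free letters, its right arm GGACAGCGC followed by a further C, on both strands, within 50 bp of the summit and with at most 3 mismatches. Such a match stood in 0.0514% of windows of the same length at 1 in 10 of the 38912 annotated TSSs, the only ones searched for it. That share rests on very few matches and is a rough figure. Among the 200 strongest peaks such a match stood in 50% for TSC22D2, 46% for ZCCHC11 and 41% for GLMP, against a TF median of 15% and a TF maximum of 45%. The TSC22D2 and ZCCHC11 shares thus lay above those of all TF lists, while 1 TF list lay above GLMP. In PHTF1 it was 29%, in REV3L 25.5%, in PRMT5 25% and in SLC30A9 20.5%, while CENPX with 12% and SMAD7 with 10% were below the TF median. For CENPX the 200 strongest are most of its 240 peaks. Among the 20 strongest peaks, 15 held a match in CENPX and 8 in SMAD7, against a TF median of 10 and a TF maximum of 16. TSC22D2, ZCCHC11, REV3L, PRMT5 and SLC30A9 were called against the same input library. Of its 8 TF lists, NPAS2 had 45%, ZNF544 36.5%, E2F7 35.5%, PRDM4 33.5%, TTF1 and ZNF140 27%, EBF1 25.5% and NCOA2 1%. The part of the input library in the RE1 shares was not tested. All RE1 shares were compared after the sites had been seen and are given without a test.

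**Figure D1:**
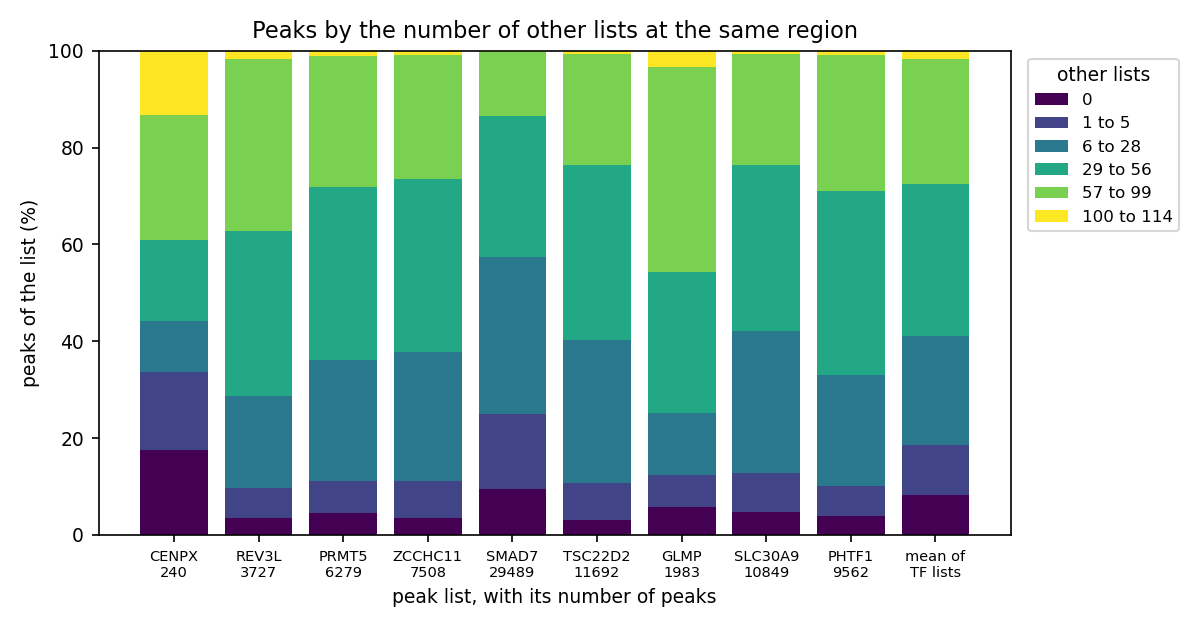
Each bar is 1 peak list and shows the percent of its peaks that lie at regions held by the stated number of other lists, of 114 counted. The last bar is the mean over the TF lists. The dark blocks at the bottom show that CENPX has the largest share of peaks with no other list, 17.5%.

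To ask how much of each list lies where many other proteins were found, the central 100 bp of peaks were merged into 212005 regions, and a region was called highly bound when at least 25% of 114 preferred lists outside the 9 (29 lists) had a peak there. There were 10799 such regions. A peak is said to have no other list where none of these 114 lists had one in its region. Such a peak may still be shared with another of the 9 or with a non-preferred list. GLMP had the largest share of its peaks in them, 74.8%, followed by REV3L with 71.3%, PHTF1 with 67.0%, PRMT5 with 63.9% and ZCCHC11 with 62.1%. TSC22D2 had 59.7%, SLC30A9 57.9%, CENPX 55.8% and SMAD7, the longest list, 42.6%. The median of the 9 was 62.1% and that of the TF lists 61.7%. The plot of peaks by number of other lists shows the same ordering, with most peaks of every list but SMAD7 at regions of 29 or more lists.

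The longer lists reached more of the highly bound regions. SMAD7 had a peak in 78.9% of them, TSC22D2 in 53.6%, PHTF1 in 47.9%, SLC30A9 in 45.6% and ZCCHC11 in 36.2%, while PRMT5 held 30.7%, REV3L 22%, GLMP 11.8% and CENPX 1.08%. The TF median was 36.8%. At the 66 regions bound by 100 or more lists, 8 of the 9 proteins held between 92.4% and 100% and CENPX held 47.0%, while all 9 proteins had a peak at 27 of these regions. The TF median there was 98.5%, and regions of so many lists are held by most lists by definition. Only 376 of the 10799 highly bound regions had a peak of none of the 9.

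**Figure D2:**
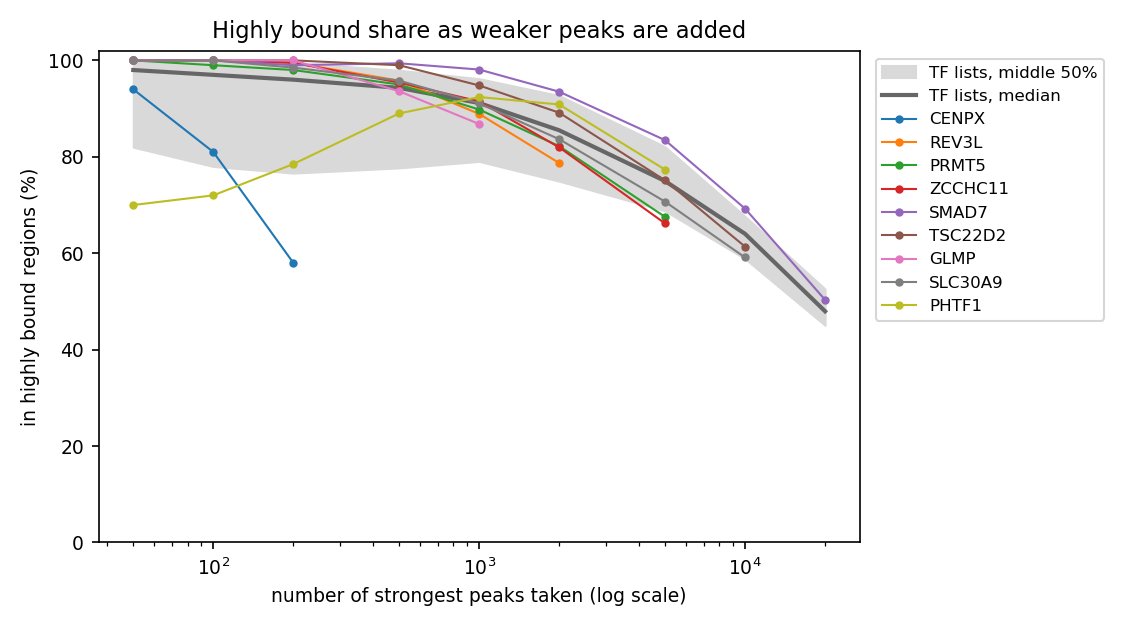
The x axis (log scale) is the number of strongest peaks taken from a list and the y axis the percent of them in highly bound regions. Lines are the 9 lists, the grey line the median TF list and the band the middle 50% of TF lists. CENPX falls to 58% by 200 peaks, and PHTF1 rises from 70% at 50 peaks to 92.4% at 1000.

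Lists of unequal length are not alike in this measure, because in most lists weak peaks lie outside highly bound regions more often, though not in TF lists such as ZNF865 and FOSL1. The 200 strongest peaks of each list were therefore compared. Highly bound regions held all 200 in GLMP and TSC22D2, 99.5% in REV3L and ZCCHC11, 99% in SMAD7, 98.5% in SLC30A9 and 98% in PRMT5. They held 78.5% in PHTF1 and 58% in CENPX, whose list is only 240 peaks long. The 9 lists had a median of 99% and the TF lists one of 96%, a difference that an exact two-sided permutation test of the rank sum did not separate (p = 0.18, adjusted p = 0.49 over 7 measures). Peaks with no other list made up 15.5% of the 200 strongest in CENPX, 10.5% in PHTF1 and none in the other 7 lists, and the medians of both groups were 0 (exact permutation p = 0.35, adjusted p = 0.49).

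The other measures did not separate the 9 lists from all TF lists either. Of the 200 strongest peaks, those within 500 bp of a transcription start site (TSS) made up 76.5% in SMAD7 and between 35% in ZCCHC11 and 49% in SLC30A9 in the other 8. The median of 40% was below the TF median of 52.5% (exact permutation p = 0.23, adjusted p = 0.49). The strongest 20% of each list exceeded the weakest 20% in its highly bound share by 29.4 points in REV3L, the smallest gap, and 52.1 points in CENPX, the largest, against a TF median of 35 points (exact permutation p = 0.47, adjusted p = 0.55). The median difference of 1.52 points in this gap became 5.94 points against the 35 TF lists that share an input library with one of the 9 (unadjusted exact permutation p = 0.047). List length, with a median log10 of 3.88 in the 9 and 3.94 in the TF lists, gave an exact permutation p of 0.55. None of the 7 measures passed at the threshold of 0.05. These p-values give how often a random relabelling of lists separates the groups as much. They treat the lists as exchangeable, which shared input libraries put in doubt, since 5 of the 9 share 1 input. All lists also share an antibody and a pipeline.

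**Figure D3:**
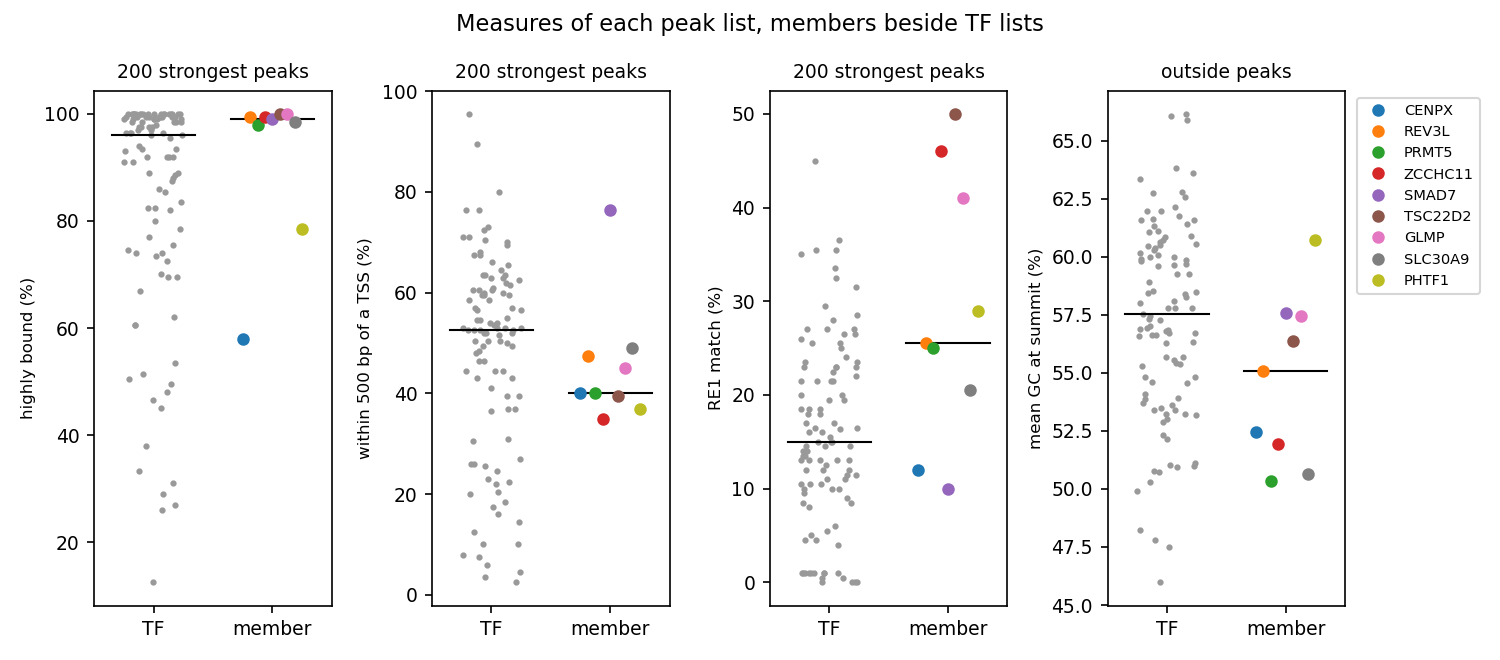
Each point is 1 peak list, grey for the TF lists and coloured for the 9. The panels give, in percent, the 200 strongest peaks in highly bound regions, within 500 bp of a TSS and with an RE1 match, and the mean GC around the summits of peaks outside highly bound regions. Horizontal lines are medians, 99 and 96 in the first panel. CENPX and PHTF1 lie below the other 7 there.

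When each TF list was cut to as many of its strongest peaks as the protein's own list holds, 7 of the 9 proteins fell below the TF median in highly bound share and all 9 were above it in peaks without another list. CENPX had 55.8% highly bound peaks where 104 TF lists cut to 240 peaks had a median of 95.8%, and 91 of those lists were above it. GLMP had 74.8% against 85.5% at 1983 peaks, REV3L 71.3% against 78.3% at 3727, PRMT5 63.9% against 72.3% at 6279 and ZCCHC11 62.1% against 69.0% at 7508. SLC30A9 (57.9% against 62.8%) and TSC22D2 (59.7% against 60.9%) were closer, and PHTF1 (67.0% against 64.8%) and SMAD7 (42.6% against 41.7%) were above the median of the cut lists. In SMAD7, 9.59% of peaks had no other list, more than in any of the 7 TF lists that are long enough to be cut to its length, whose highest value was 9.32%. A cut list keeps only the upper part of a longer list whereas the protein's own list runs to its weakest called peak, and the part this plays in the differences was not tested.

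Outside the highly bound regions, the 9 lists left between 106 peaks (CENPX) and 16931 peaks (SMAD7). Most of these lay in introns or between genes: promoters held 38.6% of them in PHTF1, 29.1% in GLMP, 21.8% in TSC22D2, 20.9% in SMAD7 and 20.7% in REV3L, and 16.8% to 17.7% in ZCCHC11, CENPX, PRMT5 and SLC30A9. The TF median was 24.4% (exact permutation p = 0.31, adjusted p = 0.49). GC around the summit of the outside peaks averaged 50.3% in PRMT5, 50.6% in SLC30A9, 51.9% in ZCCHC11 and 52.5% in CENPX, and 55.1% to 60.7% in the remaining 5. The median of 55.1% lay below the TF median of 57.5% without passing the test (exact permutation p = 0.064, adjusted p = 0.45). Leaving out each of the 9 in turn gave unadjusted exact permutation p-values of 0.019 (without PHTF1), 0.047 (without SMAD7), 0.048 (without GLMP) and 0.068 to 0.15 (without each of the others). Against the 35 TF lists that share an input library with one of the 9, the difference in GC fell from -2.47 to -0.32 points (exact permutation p = 0.77), and within 1 input library it was -2.48 points (exact permutation p = 0.62).

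Peaks with no other list, which leaves the rest of the 9 uncounted, were fewer and weaker. They numbered 42 in CENPX, 113 in GLMP, 130 in REV3L, 262 in ZCCHC11, 285 in PRMT5, 354 in TSC22D2, 371 in PHTF1, 521 in SLC30A9 and 2828 in SMAD7. Their median place in the list was between 68.5% of the way down in REV3L and 85.9% in SLC30A9, with the TF median at 73.8%. The first of them ranked 9 in PHTF1 and 86 in CENPX but 2295 in SLC30A9 and 2540 in SMAD7. The nearest TSS to the strongest of them was that of SFXN3 in PHTF1, LAP3 (an aminopeptidase gene) in CENPX, TMEM37 in GLMP and LINC01722 in PRMT5. It was that of RIPOR3-AS1 in REV3L, FN1-DT in SLC30A9, GOPC in TSC22D2, ENSG00000275358 in SMAD7 and ENSG00000286527 in ZCCHC11.

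PHTF1 had outside peaks near the top of its list. Its second strongest peak, with a signal of 430, lay in an intron of PLA2G4D, a phospholipase gene, at a region with 10 other lists, and 28 of its 100 strongest peaks were outside highly bound regions. The other lists had 19 (CENPX), 1 (PRMT5) or none there, and the TF median was 3 with 21 TF lists above PHTF1. The 6 strongest of these PHTF1 sites are printed because they share a run of letters, in capitals. Each is labelled with the gene of the nearest TSS, and an intron may belong to another gene that covers the site.

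PLA2G4D intron, chr15:42084588-42084648, minus strand, 10 other lists: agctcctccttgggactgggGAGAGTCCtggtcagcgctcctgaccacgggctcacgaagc

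near NAPG, chr18:10520302-10520362, minus strand, 1 other list: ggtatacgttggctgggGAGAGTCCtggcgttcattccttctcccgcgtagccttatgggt

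intron of ENSG00000262580, chr17:80187588-80187648, plus strand, 1 other list: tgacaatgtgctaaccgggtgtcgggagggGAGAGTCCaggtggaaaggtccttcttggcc

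near LIF, chr22:30255900-30255960, plus strand, 16 other lists: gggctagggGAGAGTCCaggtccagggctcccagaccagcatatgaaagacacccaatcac

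near SFXN3, chr10:101041289-101041349, minus strand, 0 other lists: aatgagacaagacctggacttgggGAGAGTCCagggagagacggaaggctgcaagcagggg

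VDR intron, chr12:47900830-47900890, minus strand, 10 other lists: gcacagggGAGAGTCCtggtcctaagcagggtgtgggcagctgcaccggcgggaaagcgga

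The run GAGAGTCC came from a search of all 8-letter words around the summits of the 300 strongest outside peaks, against the strongest highly bound peaks, made on odd-numbered chromosomes and then counted on even-numbered ones. On the even-numbered chromosomes it stood in 40 of 164 outside windows of PHTF1 (24.4%) and in 0.654% of its highly bound windows. In the other 126 lists the same letters stood in 0% to 2% of the strongest outside windows, with a median of 0.333%, and in 0.303% of windows at all annotated TSSs. The leading words of the other 8 proteins were found in the same way, and on even-numbered chromosomes their shares outside minus those in highly bound windows ran from -2.06 points in ZCCHC11 to 0.642 points in SLC30A9, with 5 of the 8 lower outside. In TSC22D2 that word, GTGCTGAA, is the start of RE1 read on the other strand, and it stood in 5.15% of outside and 6.94% of highly bound windows. Over all lists PHTF1 stood at place 13 of 126 by this difference, 23.7 points, among zinc finger proteins such as ZNF430 and ZFP90.

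**Figure D4:**
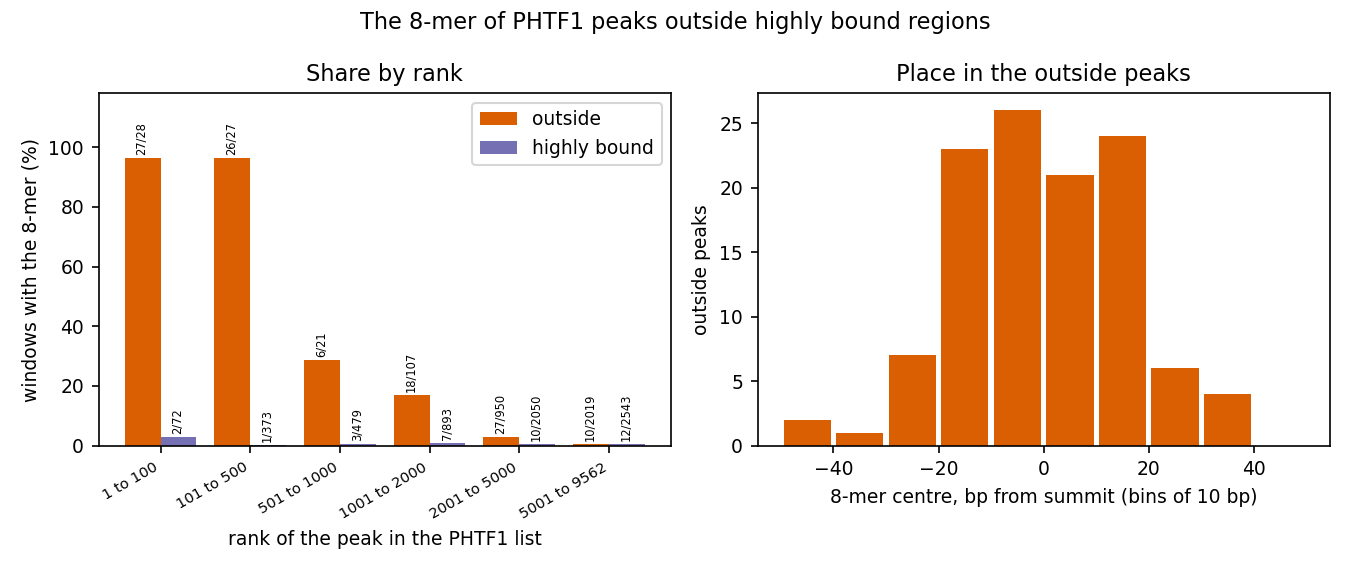
On the left, the y axis is the percent of PHTF1 peak windows with the 8-letter word, by rank of the peak, for outside (orange) and highly bound (purple) peaks, with counts above the bars. On the right, the number of outside peaks is plotted against the distance of the word from the summit. The word is in 27 of the 28 outside peaks among the 100 strongest and lies near the summit.

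Strength and the word went together in this list, which had also been searched for it. The counts by rank cover all chromosomes and so include the strong peaks on odd-numbered ones from which the word was picked. They are a description, and part of the fall with rank is built in. Of the 55 outside peaks among the 500 strongest of PHTF1, 53 held the word (96.4%), and 30 of these had no other list. At ranks 2001 to 5000 it was in 27 of 950 outside peaks (2.84%) and beyond rank 5000 in 10 of 2019 (0.495%). Its centre lay a median of 12.5 bp from the summit in the 114 outside peaks that held it, and within 20 bp in 82.5% of them. Those 114 peaks lay at a TSS in 10.5% of cases, while outside peaks without the word did so in 39.6%. No other list shared more than 6 of the 114 sites with summits within 50 bp, and 65 lists shared none.

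The letters beside the word recurred as well. In the 114 windows, G stood at each of the 3 places before it in 76.3%, 87.7% and 91.2%, and after 1 free place G followed at the next 2 in 97.4% and 95.6%. The longer run read from odd-numbered chromosomes alone was GGGGAGAGTCCNGG. It occurred at 67 places of the even-numbered chromosomes, and 33 of them (49.3%) carried a PHTF1 summit within 50 bp, where the next list, KAT6A, had 2 and the median list 0. Over chromosomes 1 to 22 and X it occurred 146 times, with a PHTF1 peak at 75. PHTF1 was chosen as a protein not expected to bind DNA directly, and its strongest outside peaks share a sequence. The peak list does not tell which protein touched the DNA there, which was not tested. Nor does it hold a measure of which protein carried the tag, so every PHTF1 value here belongs to the list labelled PHTF1, and the identity of the tagged line was not checked.

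Known motifs were counted on both strands in the same windows of all 9 lists. The CTCF motif, read by the insulator protein CTCF, was in 2.08% of outside windows in TSC22D2 and 1.79% in ZCCHC11, against a TF median of 0.216%, a TF maximum of 1.77% and 0.0437% of TSS windows. The window at rank 968 of TSC22D2 near SRSF6, chr20:43449139-43449199, plus strand, shows it in capitals: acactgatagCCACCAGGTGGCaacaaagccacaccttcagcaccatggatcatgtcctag. The FOXA motif TGTTTAC was above the TF median in the outside windows of 8 of the 9 lists, AP-1 (TGACTCA) in 6 and CEBP (TTGCNNAA) in 5. Counts of 5 and 6 of 9 are close to an even split. Over all motifs the count ran from 2 (CENP-B box) to 8 (FOXA). It was 7 for the E-box, YY1 and ZNF143 motifs and 6 for the ETS and CCAAT box motifs. CEBP was highest in PRMT5 with 9.52%, followed by SLC30A9 with 6.67%, CENPX with 6.60% of only 106 windows, ZCCHC11 with 6.33% and TSC22D2 with 5.53%. The TF median was 3.85% and the TF maximum 12.2%. FOXA was highest in SLC30A9 with 4.88% (TF median 1.53%, TF maximum 8.32%), and was at 4.37% in PRMT5 and 4.15% in ZCCHC11. AP-1 was also highest in SLC30A9 with 5.25% (TF median 1.81%, TF maximum 58.2%), before ZCCHC11 with 3.87% and PRMT5 with 3.75%. For TSS windows the shares were 3.03% for CEBP, 0.938% for FOXA and 1.48% for AP-1. PRMT5, SLC30A9, ZCCHC11 and TSC22D2 were called against the same input library, and its part in these shares was not tested.

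Motifs tied to a protein's own pathway were then counted. The SMAD palindrome GTCTAGAC, read by receptor SMADs, was in at most 0.170% of the outside windows of any of the 9 with a TF median of 0.0491% and 0.0437% of TSS windows. The metal response element (TGCACNC or TGCGCNC) was in 8.01% of outside windows of SLC30A9 and 12.3% in the median TF list, and in 13.2% of TSS windows. The lysosomal CLEAR element TCACGTGA, which contains the E-box CACGTG, was in none of the 499 outside windows of GLMP, where the TF median was 0.141% and the share of TSS windows 0.447%. The CENP-B box was in no outside window of CENPX. CENPX outside peaks held GATTACAGG, a word of Alu repeats, in 6.6% of windows, where the TF maximum was 5.83% and the share of TSS windows 0.509%. That word was picked after its values were seen, and the share rests on 106 windows. No match says only that these letters are not in these windows.

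**Figure D5:**
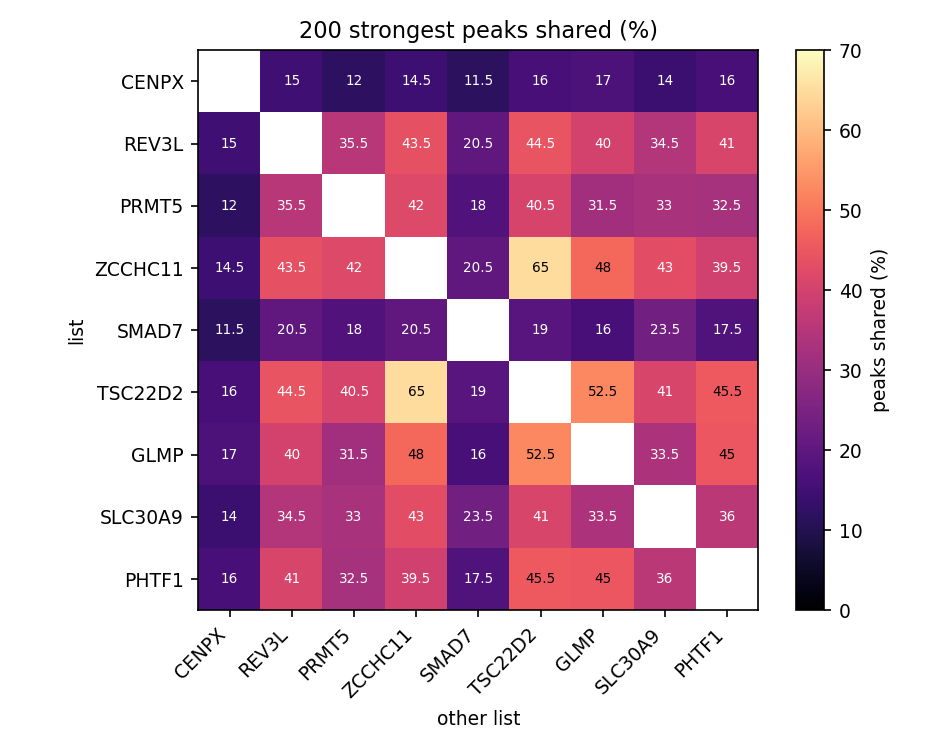
Each cell gives the percent of the 200 strongest peaks of the list in the row that lie within 50 bp of one of the 200 strongest of the list in the column. TSC22D2 and ZCCHC11 share 65%, and the CENPX and SMAD7 rows are the darkest.

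The strongest peaks of several of the 9 were the same sites. TSC22D2 and ZCCHC11, the non-preferred lists, shared 65% of their 200 strongest peaks, the highest share between one of the 9 and any other list, and TSC22D2 was also the nearest list to GLMP with 52.5%. Next to both came NPAS2, a TF of the circadian clock, with 63% and 57.5%. The nearest lists of PRMT5 were ZNF140, ZNF544 and E2F7 (42% to 44%), those of REV3L were EBF1, TTF1 and E2F7 (47% to 48.5%), and those of PHTF1 were ZSCAN12, ZNF701 and CAMTA1 (56% to 61%). SLC30A9 was nearest to ZNF701 (47.5%), CENPX to FAM200B (18%) and SMAD7 to RCOR3 (26.5%), a corepressor. TSC22D2, ZCCHC11, NPAS2, PRMT5, REV3L and the nearest lists of PRMT5 and REV3L were all called against 1 input library, so among them closeness between proteins and a shared input cannot be told apart. SLC30A9 was called against this library too. Its nearest list, ZNF701, was not, and neither was GLMP, whose nearest list was TSC22D2. ZCCHC11, which shares this input library with SLC30A9, had 43% with it.

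Within that input library the 5 proteins and 8 TF lists can be set side by side. Highly bound shares of the 200 strongest peaks were 98% to 100% in PRMT5, REV3L, SLC30A9, TSC22D2 and ZCCHC11. They were 97.5% to 100% in 6 of the TF lists (E2F7, EBF1, NPAS2, TTF1, ZNF140 and ZNF544) and lower in PRDM4 (74%) and NCOA2 (70%). The gap in highly bound share between the strongest and weakest 20% of a list had a median of 36.6 points in the 5 proteins and 26.5 points in the 8 TF lists, a difference of 10.1 points (unadjusted exact permutation p = 0.045).

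Outside highly bound regions the 9 lists shared less. In CENPX, 2 of 106 outside peaks were also an outside peak of another of the 9 (1.89%), and in SMAD7 10.8%, PHTF1 17.1% and GLMP 18.2% were. The shares were higher in SLC30A9 (25.9%), REV3L (30%), PRMT5 (31%), TSC22D2 (34.6%) and ZCCHC11 (37.4%), the 5 lists with a common input. Of the outside sites, 2 were held by 7 of the proteins, one on chromosome 16 at 12199627 to 12199701 and one near OSBPL7, an oxysterol-binding protein gene, on chromosome 17. One of the 11 held by 6, near the sulfotransferase gene SULT2A1, led these by rank. All 3 had 28 counted lists, 1 short of the limit.

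Promoters of genes that work with each protein were then examined. SMAD7 had a peak at 14 of 18 promoters of TGF-beta targets (77.8%), including ID1, ID2, ID3, SMAD6, SKIL, SMURF1, SMURF2 and TGFBR1, while it held 38.3% of all protein-coding promoters. The 10 TF lists with the most similar number of promoters held 6 to 11 of the same 18, and 2 of all TF lists held 14 or more. The ID1 peak ranked 487 with 90 other lists, and the CDKN2B peak 6192 with 41. In the other 8 lists the counts were within the range of the 10 TF lists of like size.

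PRMT5 held 5 of 15 promoters of Sm and methylosome genes (33.3%, against 11.3% of all coding promoters), led by SNRPB, a core Sm protein, and SNRPD1, where like TF lists held 3 to 8. REV3L held 4 of 22 Fanconi and translesion genes (FANCD2, FANCC, FANCA and CENPX), which is 18.2% against 8.50% of all coding promoters, where like lists held 3 to 6. SLC30A9 held 5 of 21 zinc and metal genes, led by the transporters SLC39A3 and SLC30A6 (23.8% against 17.7% of all coding promoters), where like lists held 4 to 9. TSC22D2 held 5 of 12 osmotic and WNK genes, led by NFAT5, the osmotic stress TF (41.7% against 21.8%), where like lists held 2 to 7. PHTF1 held 4 of 12 genes of the endoplasmic reticulum stress response (DDIT3, ATF4, DNAJB9 and HSPA5), or 33.3% against 22.2% of all coding promoters, where like lists held 4 to 8. GLMP held 1 of 22 lysosome genes, CTSA, and 4.85% of all coding promoters, where like lists held 0 to 6 of the 22. ZCCHC11 held none of 16 genes of uridylation and let-7 and 13.4% of all coding promoters, where like lists held 0 to 5 of the 16. CENPX held none of its 22 Fanconi and 12 centromere genes, but its list held only 73 of 20020 coding promoters (0.365%), and like TF lists had medians of 1 and 0.

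A peak in or within 2 kb of the protein's own gene was found in 3 of the 9 lists and in 36 of 104 TF lists. PHTF1 had one at its own promoter, 38 bp from the TSS, at rank 8433 with 33 other lists, and TSC22D2 had one 54 bp from its TSS at rank 5771 with 41 other lists. SMAD7 had 2, both in introns. All of them lay well below the top of their lists.

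The peaks were unevenly spread over chromosomes. Chromosomes 2, 6, 14, 16, 17 and 20, picked after the counts were seen, make up 26.4% of the autosomes, and HepG2 is known to carry extra copies of several of them. They held 81.2% of GLMP peaks and 81% of CENPX peaks with no other list, and 47.0% (SMAD7) to 64.6% (REV3L) in the other 7. The TF median was 55.9% and its highest value 91.7%. Among highly bound peaks the 9 lists had 48.3% to 61.1% there and the median TF list 53.1%. The part of copy number in these shares was not tested.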

How the data were processed

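The authors processed in-house ChIP-seq with the ENCODE pipeline and deposited 1 list of optimal peak calls per protein, called against an input library on hg38. Which aligner and peak caller were run is not given in the sources used here. Replicates are not separate and depth is unknown. The deposited signal (used to rank peaks) is not scaled between lists, the deposited score (540 to 1000) served as a filter in 1 alternative, and the deposited q-value column, negative in 43 lists, was treated as a score. Promoters are 500 bp on either side of canonical TSSs of GENCODE 44. Sequences are from hg38. Lists were grouped by protein, with classes from the study's supplement. Exact two-sided permutation tests of rank sums compared 9 lists with 105, with Benjamini-Hochberg adjustment over 7 measures. The tests, counts and word search were tested on simulated data. Named peaks are the 3 strongest inside highly bound regions and the 3 strongest with no other list, outside sites held by most of the 9, peaks at a protein's own gene, the nearest 3 lists, and role genes by signal. Other sites shown were chosen after their values were seen. The members and lists were chosen with earlier results of these data known. Alternatives changed the number of peaks, ranking, thresholds, merging, windows and the lists used. Software was pysam 0.24.0, scipy 1.17.1, numpy 2.4.6 and pandas 2.3.3 under Python 3.11.15.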

Additional observations from a re-analysis of the deposited data

Results flagged for a closer look

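Among the 9 lists, 3 values stood apart from the rest by Dixon's ratio of a gap to the range, of 11 measures with both ends examined, a ratio that chance passes in about 1 group of 20 and that was made for replicates rather than for different proteins. SMAD7 had 29489 peaks, against 11692 in the next list (ratio 0.608), while on the log10 scale used for the test of list length the ratio was 0.192 and the value did not stand apart. Its share of the 200 strongest peaks within 500 bp of a TSS, 76.5%, was also above the next value, 49%. CENPX, with 240 peaks, had no other list at 17.5% of them, where the next value was 9.59%.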

How the results depend on the processing

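No paired analysis was possible because each protein has 1 list and the labels number no replicates. Over 124 alternatives to the 7 comparisons, 110 did not turn the direction and kept the side of the 0.05 threshold. Another 5 turned the direction and 9 moved below an unadjusted exact permutation p of 0.05. The causes were not tested. Of the 110, 20 belong to peaks without another list, where the main difference was 0 and there was no direction to keep. With all peaks taken, the difference in that measure was -1.42 points (exact permutation p = 0.16). The difference in log10 list length turned to 0.139 against TF lists that share an input library and to 0.243 within 1 input library. The difference between the strongest and weakest 20% in highly bound share turned to -0.143 points with highly bound set at 10% of lists and to -1.03 at 50%, and rose to 5.94 points (exact permutation p = 0.047) against TF lists that share an input and 10.1 within 1 input (exact permutation p = 0.045). The promoter share of outside peaks turned to 0.565 points within 1 input. The difference in GC of outside peaks was -2.90 points at 10% of lists (exact permutation p = 0.042) and -3.78 without GLMP (exact permutation p = 0.048), but -0.32 against TF lists that share an input (exact permutation p = 0.77) and -2.48 within 1 input (exact permutation p = 0.62). Without CENPX and PHTF1, an alternative added after seeing the data, the difference was 3.5 points in highly bound share, 0 in peaks without another list and -2.47 in GC. These are 3 of the 9, and since the lists left out were the lowest in the first measure and the highest in the second, a smaller p was built in there and supports nothing. Leaving out each of the 9 lists in turn gave differences of 2.75 to 3.25 points in highly bound share, 0 in peaks without another list, -12.5 to -10 in promoter share, -0.0994 to -0.00812 in log10 length, 0.0221 to 1.72 points between strongest and weakest 20%, -5.19 to -3.59 in outside promoter share and -3.78 to -1.83 in outside GC, the last with an exact permutation p of 0.019 without PHTF1 and 0.047 without SMAD7.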
